A study of Mus musculus with 12 samples.

Results

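Lysosomal genes were examined as a group of 39 genes in B cells from Peyer's patches (PP), the lymphoid follicles of the small intestine. The members are the rows of the deposited table whose gene name is on a list of lysosomal hydrolases, lysosomal membrane proteins and their transcription factors, and 39 of the 36175 genes in the table were members. No member fell below 1 in any of the mice, so 39 of 39 members were among the 12590 genes tested. The samples were PP B cells of 6 sham controls and 6 stroke mice, collected 18 h after surgery with one library per mouse. All mice were wild-type male C57BL/6JHsd animals of 10 to 12 weeks. For stroke, the middle cerebral artery was occluded for 1 h and then reopened, and sham controls had the surgery without the occlusion. B cells were enriched with a magnetic pan-B kit and then with CD45 beads, and the methods state that small amounts of epithelial and endothelial cells remained after the first step but describe the final cells as almost pure B cells.

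Lysosomes are the acidic organelles in which proteins, glycolipids, glycans and glycosaminoglycans are broken down. In B cells they also meet the endosomes in which antigen taken up through the B cell receptor is cut to peptides and loaded on MHC class II. The transcription factors TFEB and TFE3 bind a short palindromic sequence, the E-box CACGTG, in the promoters of many lysosomal genes, and its extended form GTCACGTG is known as the core of the CLEAR motif.

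To show where this sequence lies in the members, promoter windows of 300 bases (250 before to 50 after the start) were taken from RefSeq on GRCm38.p6. A window was found for 34 of 39 members. The E-box CACGTG, which reads the same on both strands, was in the window of 11 of these 34 genes (28.2% of the members' 39 windows, compared with 7.15% of 32851 windows of all genes). The longer form GTCACGTG or its reverse CACGTGAC, which contains the E-box, was in 9 of them (23.1% of the members' windows, compared with 2.25% of all). For each of these 9 genes, the longer form nearest to the start is shown on the strand of the gene, 5′ to 3′, with its 8 bases in capitals.
Arsa: tcaactcagtGTCACGTGttgtctgctc
Ctsa: tgcagatgctCACGTGACcagagctaca
Ctsd: gcccgcgtctCACGTGACccgttgaggg
Gla: tgagatctcgGTCACGTGagcaactctc
Glb1: ctgcttctgaGTCACGTGgcctacagag
Lamp1: tgccgactggCACGTGACcacatcacgt
Mcoln1: gcgccccgctCACGTGACcgcggcgcat
Naglu: caaccttcagGTCACGTGgcccgaggtc
Sgsh: gcctgccgtgCACGTGACcgtggggagc
The stretches lie at chr15:89477425-89477452 (minus strand) for Arsa, chr2:164833768-164833795 (plus) for Ctsa, chr7:142387908-142387935 (minus) for Ctsd, chrX:134601184-134601211 (minus) for Gla, chr9:114401018-114401045 (plus) for Glb1, chr8:13159123-13159150 (plus) for Lamp1, chr8:3500464-3500491 (plus) for Mcoln1, chr11:101070009-101070036 (plus) for Naglu and chr11:119355522-119355549 (minus) for Sgsh. The flanks differ from gene to gene around the shared core. A match is a string of letters and no measurement of binding.

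Lamp1, the gene of a major glycoprotein of the lysosomal membrane, had the most E-boxes in the bases before the start among the 34 members with a window, with 4 (in capitals, 1 of them with the AC of CACGTGAC) within 91 bases at chr8:13159070-13159160 (plus strand), directly before its first exon.
Lamp1: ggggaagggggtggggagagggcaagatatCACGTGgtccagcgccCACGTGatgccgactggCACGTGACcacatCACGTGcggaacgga

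The identity of the cells was checked against marker lists. The 4 B cell markers Cd79a, Cd79b, Ms4a1 and Pax5 together reached 869.8 to 1722 in sham controls and 799 to 1494 in stroke mice, in the unit of the table, a normalised TPM that is already per transcript length. Their sum was lowest in sham control 6 and stroke mouse 5. Pax5, the factor that sets B cell identity, averaged 317 ± 40.8 in sham controls and 317 ± 31.7 in stroke mice (SD, n = 6 each). The genes of the B cell receptor chains Cd79a (506 ± 158 and 418 ± 124) and Cd79b (321 ± 92.8 and 261 ± 64.3) and of the surface protein CD20, Ms4a1 (241 ± 53.6 and 190 ± 47.3), had negative log2 differences of -0.26, -0.27 and -0.36, and the median over the 4 markers was -0.26 (smallest adjusted p = 0.793, limma). Markers of intestinal epithelium differed most between mice. Their sum was 2252 and 1989 in sham controls 1 and 2, 1203 in stroke mouse 1, and 21 in sham control 6. Of the 8 neutrophil markers, S100a8 and Ly6g reached no more than 0.524 and 0.522 and Elane was at 0 in 10 of 12 mice, Mpo was at 0.471 to 1.20, S100a9, Csf3r and Ngp reached 1.44, 1.94 and 0.707, and Cxcr2 was the one above 1 in every mouse, at 2.35 to 5.02. The columns of the table did not share a total, which ranged from 559570 in sham control 6 to 1404340 in sham control 1, and the 10 most abundant genes took 14.7% to 45.8% of it. The number of reads is unknown.

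The members spanned a wide range of levels. Averaged over all 12 mice, Ctss was highest at 265 and Gla lowest at 4.50. Ctss encodes cathepsin S, the protease that trims the invariant chain from MHC class II in antigen-presenting cells. It was followed by Ctsh (cathepsin H) at 183, Psap (prosaposin) at 129, Tfeb at 121 and Ctsz (cathepsin Z) at 101. Tfeb was thus more abundant per transcript length than its relative Tfe3, which averaged 10.6.

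After adjustment over all genes, 0 of 39 members differed between stroke mice and sham controls (limma with Benjamini-Hochberg adjustment, adjusted p under 0.05 in 0% of the 12590 genes tested). The smallest adjusted p of a member was 0.716, and the smallest of any gene was 0.468. At an unadjusted p under 0.05, 1 member was lower in stroke mice, Fuca1 (2.56% of members, compared with 1.69% of all genes tested), and 1 was higher, Neu1 (2.56%, compared with 4.42%). The values of the groups overlapped for every member, so 0 members lay wholly below or above (0.0874% of all genes lay below and 0.349% above). The log2 difference, stroke minus sham, was negative for 30 of 39 members (76.9%), while 48.6% of all genes tested had a negative difference. The median difference was -0.20 over the members and 0.0069 over all genes tested. The genes of a list vary together, and no test was made of the list. In RNA of a whole cell population, fewer cells of one type and less RNA per cell cannot be told apart.

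**Figure D1:**
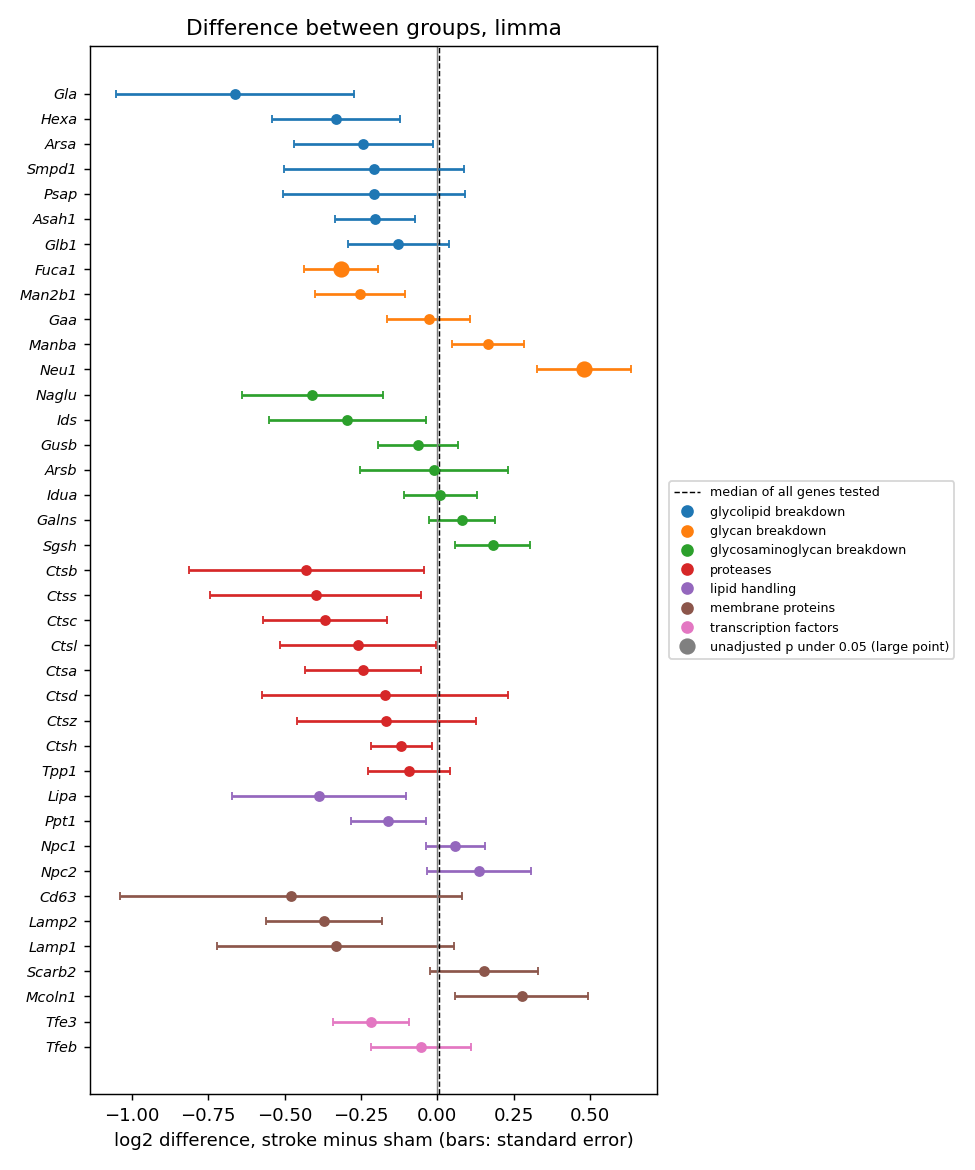
Log2 difference (stroke minus sham, limma) of each of the 39 members on the x axis, with bars of 1 standard error, grouped and coloured by role. Negative differences make up 30 of the 39, all 9 proteases among them (7 with each mouse scaled to the same total), and the larger points mark Neu1 (0.48) and Fuca1 (-0.32), which had an unadjusted p under 0.05.

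Neu1 encodes the lysosomal sialidase, which removes sialic acid from glycoproteins and glycolipids (chr17:34931253-34935953, plus strand, GRCm38). Its normalised TPM was 12.6, 15.2 and 22.4 (lowest, median and highest) in sham controls and 18.5, 20.3 and 28.7 in stroke mice. All 6 stroke mice lay above the sham mean, and 2 of them above the highest sham control, sham control 1. The means were 15.8 ± 3.43 (SD, n = 6) and 22.2 ± 4.14 (SD, n = 6), a log2 difference of 0.48 (SE 0.155). The unadjusted p was 0.0083 and the adjusted p 0.716 (limma), and the exact two-sided permutation test over 924 assignments of the mice gave 0.0108. Without sham control 1 the difference was 0.58. The sign and the unadjusted call of Neu1 were kept in each alternative tried, between 0.40 and 0.60.

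Fuca1 encodes the alpha-fucosidase that removes fucose from glycans (chr4:135920735-135940311, plus strand). Its values were 86.9, 106 and 119 (lowest, median and highest) in sham controls and 68.1, 84.6 and 97.4 in stroke mice. All 6 stroke mice were below the sham mean and 4 below the lowest sham control. The means were 104 ± 13.1 (SD, n = 6) and 83.7 ± 10.1 (SD, n = 6), a log2 difference of -0.32 (SE 0.122). The unadjusted p was 0.0221 and the adjusted p 0.772 (limma), and the exact two-sided permutation test gave 0.0152. Fuca1 is one of the genes the study named from these mice, so its place on the list is not independent of its difference. Unlike most members, it was highest in sham control 6, at 119. With each mouse scaled to the same total its difference was -0.19 and its unadjusted p 0.456 (limma).

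**Figure D2:**
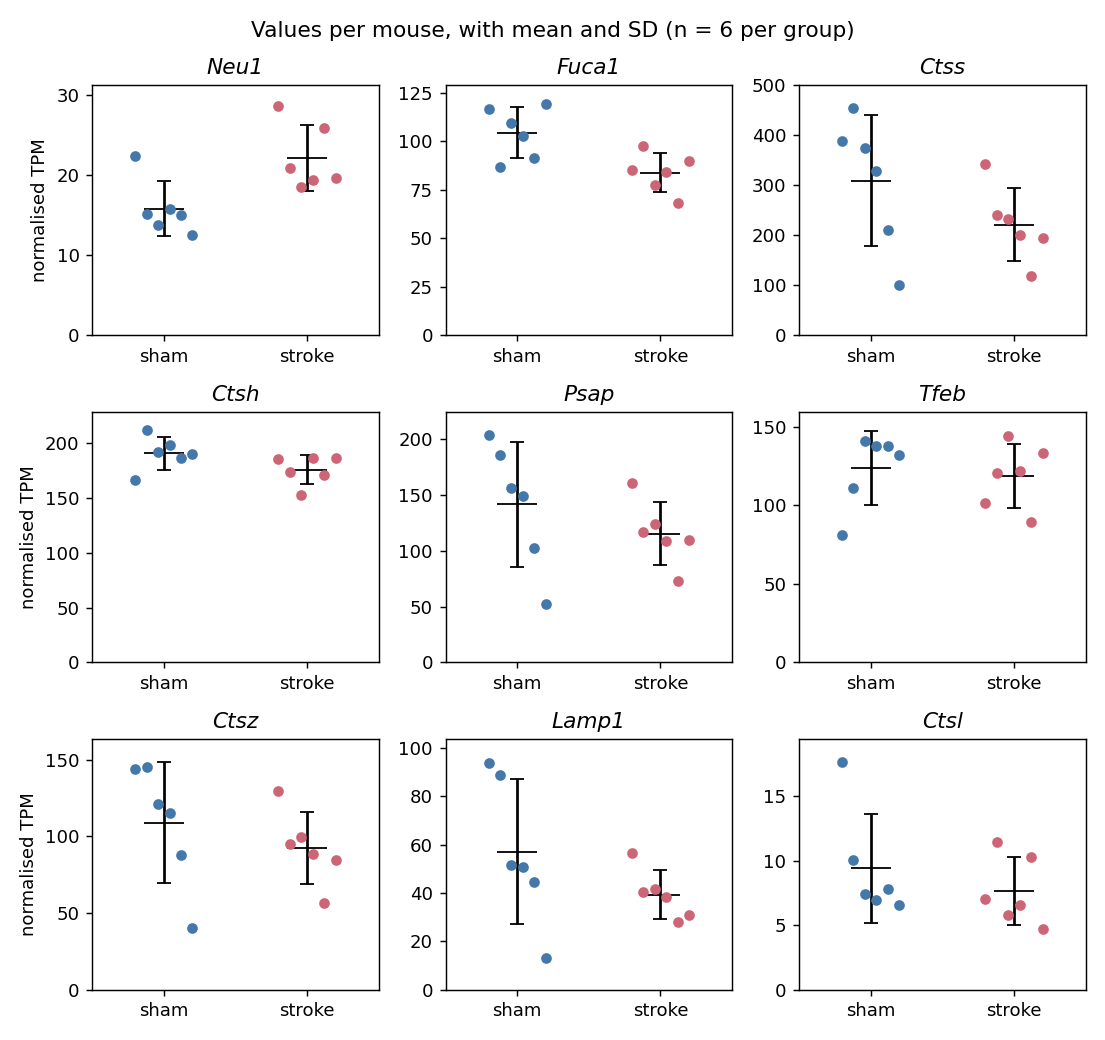
Normalised TPM (y axis, from 0) of 9 members in each of the 6 sham controls and 6 stroke mice, as points in order of mouse number from left to right, with the mean and SD. For Fuca1, 4 stroke mice lie below all sham controls, and for Neu1, 2 lie above them, while the stroke values of Ctss, Psap, Ctsz and Lamp1 lie inside the sham range.

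Of the other enzymes that trim glycans, Man2b1, an alpha-mannosidase, averaged 55.7 ± 11.0 in sham controls and 46.2 ± 5.91 in stroke mice (SD, n = 6 each), and its 6 stroke values were below the sham mean. Manba, the beta-mannosidase, averaged 29.7 ± 3.48 and 33.3 ± 3.53. Gaa, the acid alpha-glucosidase that degrades glycogen, was level at 20.4 ± 3.24 and 20.0 ± 2.95. The 5 genes thus had 3 negative and 2 positive differences, with a median of -0.029, and Fuca1 and Neu1 stood at their ends.

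Glycolipids are degraded one sugar at a time, with saposins presenting the lipid to the enzyme. All 7 members of this role had a negative difference, between -0.66 and -0.13 with a median of -0.21, and the adjusted p was 0.793 or higher for each (limma). Psap, the precursor of the saposins (chr10:60277627-60302597, plus strand), was at 52.7, 153 and 204 (lowest, median and highest) in sham controls and at 72.7, 113 and 161 in stroke mice. The stroke values lay within the sham range, whose lowest value was that of sham control 6. Its means were 142 ± 55.8 and 116 ± 28.6 (SD, n = 6 each), a log2 difference of -0.21 (SE 0.298). Hexa, the alpha subunit of beta-hexosaminidase, averaged 25.5 ± 7.77 and 19.7 ± 3.83, and Asah1, acid ceramidase, 25.2 ± 4.02 and 21.7 ± 2.70. Gla, alpha-galactosidase, had the most negative difference of all members, -0.66 (SE 0.389), at means of 5.68 ± 4.09 and 3.32 ± 2.06. Its sham mean holds one value of 13.7, that of sham control 3, without which the difference was -0.38. Glb1 (beta-galactosidase), Arsa (arylsulfatase A) and Smpd1 (acid sphingomyelinase) had differences of -0.13, -0.24 and -0.21.

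The 7 enzymes that degrade glycosaminoglycans had 4 negative and 3 positive differences, with a median of -0.011. Naglu, alpha-N-acetylglucosaminidase, had the most negative, -0.41 (SE 0.231), with 10.4 ± 2.58 in sham controls and 7.78 ± 2.15 in stroke mice (SD, n = 6 each). The 6 stroke values were all below its sham mean, and the lowest was 3.60 in stroke mouse 5, without which the difference was -0.22. Sgsh, the sulfohydrolase that acts on heparan sulfate, had the most positive, 0.18 (SE 0.123), at 11.7 ± 1.72 and 13.3 ± 1.5. Both enzymes act on heparan sulfate. Gusb (beta-glucuronidase), Ids (iduronate 2-sulfatase), Idua (alpha-L-iduronidase), Arsb (arylsulfatase B) and Galns (N-acetylgalactosamine-6-sulfatase) lay between, from -0.29 for Ids to 0.082 for Galns.

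The proteases contain the members with the highest levels, and all 9 had a negative difference, from -0.43 to -0.092 with a median of -0.24, of which 7 were negative and all 9 below the median of all genes when each mouse was scaled to the same total. Ctss (chr3:95526786-95556403, plus strand) was at 101, 351 and 454 (lowest, median and highest) in sham controls and at 118, 216 and 341 in stroke mice. The highest value was that of sham control 2 and the lowest that of sham control 6, so that the sham controls enclosed all stroke mice. Its means were 309 ± 130 and 221 ± 73.1 (SD, n = 6 each), a log2 difference of -0.40 (SE 0.345, unadjusted p = 0.269, adjusted p = 0.839, limma). Ctsz, a carboxypeptidase (chr2:174427493-174439039, minus strand), had values of 40.5, 118 and 145 in sham controls and 56.7, 91.8 and 130 in stroke mice. Its stroke values again lay inside the sham range, and its difference was -0.17 (SE 0.292). Ctsh, an aminopeptidase (chr9:90054152-90076089, plus strand), varied little, at 166, 191 and 212 in sham controls and 152, 180 and 186 in stroke mice. All 6 of its stroke values were below the sham mean of 191 ± 15.1 (SD, n = 6), and its difference was -0.12 (SE 0.0999).

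Ctsl, cathepsin L (chr13:64359337-64370890, minus strand), was among the low proteases, at 6.59, 7.61 and 17.6 in sham controls and 4.73, 6.80 and 11.4 in stroke mice. The highest value belonged to sham control 1, and 3 stroke mice were below the lowest sham control. Its difference was -0.26 (SE 0.255, unadjusted p = 0.325, limma). Ctsb (cathepsin B) averaged 28.1 ± 16.0 in sham controls and 18.1 ± 5.38 in stroke mice (SD, n = 6 each), and Ctsd, the aspartic protease cathepsin D, 24.7 ± 14.1 and 19.2 ± 6.95. Both were highest in sham control 1 and lowest in sham control 6, and the difference of Ctsd, -0.17, was 0.041 without sham control 1. Ctsc, cathepsin C, which activates granule proteases, averaged 82.4 ± 21.1 and 63.5 ± 15.9, with a difference of -0.37 (SE 0.202, unadjusted p = 0.0912, limma). Ctsa, which protects Neu1 and Glb1 in a complex, averaged 84.3 ± 8.02 and 73.5 ± 19.1, a difference of -0.24. Its lowest value was 37.9 in stroke mouse 5, and without that mouse the difference was -0.064. Tpp1, a tripeptidyl peptidase, had the smallest difference of the proteases, -0.092.

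The 4 genes of lipid handling were evenly split. Npc1, the membrane protein that exports cholesterol from lysosomes, had the narrowest range of all members, 1.25-fold over the 12 mice, with 18.7 ± 1.77 in sham controls and 19.5 ± 0.931 in stroke mice (SD, n = 6 each). Npc2, its soluble partner, averaged 12.1 ± 3.36 and 13.0 ± 1.43. Lipa, lysosomal acid lipase, averaged 9.62 ± 3.85 and 7.17 ± 3.03, a difference of -0.39 (SE 0.285). Ppt1, a thioesterase that removes palmitate from proteins, averaged 32.1 ± 2.88 and 28.9 ± 4.36. Ppt1 overlaps the more abundant gene Cap1 (mean 294) on the opposite strand, Npc1 overlaps Rmc1 (54.7), and among the other members Idua overlaps Dgkq (21.8) and Ctsz overlaps Nelfcd (41.1). On the same strand, Glb1 overlaps Tmppe (5.81) and Ctsd overlaps Gm49369 (2.11). Protein-coding genes on the opposite strand with means of up to 10.3 overlap Hexa, Sgsh, Ctsa, Ctsb and Lamp1, and Arsa, Arsb and Ctsl overlap noncoding genes. The sources used here do not say whether strand was used, so the values of all these members are uncertain.

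The 5 membrane proteins had 3 negative and 2 positive differences. Lamp1, whose E-boxes are printed above, was at 12.9, 51.3 and 93.7 (lowest, median and highest) in sham controls and 28.1, 39.3 and 56.6 in stroke mice (chr8:13159161-13175338, plus strand). Sham controls 1 and 6 held its highest and lowest values, a 7.23-fold range. Its means were 57.1 ± 30.1 and 39.3 ± 10.05 (SD, n = 6 each), a difference of -0.33 (SE 0.388, unadjusted p = 0.406, limma). Lamp2, the related protein needed for chaperone-mediated autophagy, averaged 28.2 ± 8.31 and 21.1 ± 3.12, and its 6 stroke values were below the sham mean (difference -0.37, SE 0.190, unadjusted p = 0.0724, limma). Cd63, a tetraspanin of late endosomes, had the widest range of all members, 22.6-fold. It was highest in sham control 1 at 27.9 and lowest in sham control 6 at 1.24, and its stroke values, 3.82 to 8.14, lay between. Mcoln1, the calcium channel TRPML1 that signals to TFEB, had a positive difference of 0.28 (SE 0.218) at 66.4 ± 18.6 and 79.8 ± 23.3, and all 6 stroke values were above the sham mean. Its highest value was 127 in stroke mouse 6, and the difference was 0.13 without that mouse and 0.11 without sham control 2. Scarb2, the receptor that carries glucocerebrosidase to lysosomes, had a difference of 0.15.

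Tfeb (chr17:47737030-47792419, plus strand) was at 81.2, 135 and 141 (lowest, median and highest) in sham controls and 89.5, 121 and 144 in stroke mice. The groups overlapped over nearly their whole range, and the difference was -0.052 (SE 0.164, unadjusted p = 0.756, limma). Its lowest value was in sham control 1, where Lamp1, Ctsb, Ctsd and Cd63 were highest. Tfe3 averaged 11.4 ± 1.73 in sham controls and 9.71 ± 1.02 in stroke mice (SD, n = 6 each), a difference of -0.22 (SE 0.124), with 6 of 6 stroke values below the sham mean. The activity of both proteins is set largely by their location in the cell, which RNA levels do not report. The 9 genes with the longer E-box form had 7 negative and 2 positive differences and a median of -0.24, and the 25 genes with a window that lacks it had 20 and 5 and a median of -0.21.

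Among sham controls, the members varied more between mice than all genes did at the median. The median SD of the log2 values in sham controls was 0.381 over the members and 0.310 over all genes tested, and in stroke mice 0.260 and 0.277. For 29 of 39 members (74.4%) the fold range was wider in sham controls than in stroke mice, as for 59.1% of all genes. The highest of the 12 values was in sham control 1 or 2 for 24 members (61.5%, all genes 32.8%). The lowest was in sham control 6 for 15 members and in stroke mouse 5 for 13, together 71.8% (all genes 45.0%). The highest in sham control 1 or 2 and the lowest in sham control 6 were found together in 13 members (33.3%, all genes 17.2%), with Ctsb, Ctsd, Ctss, Ctsz, Lamp1, Lamp2, Psap and Cd63 among them.

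**Figure D3:**
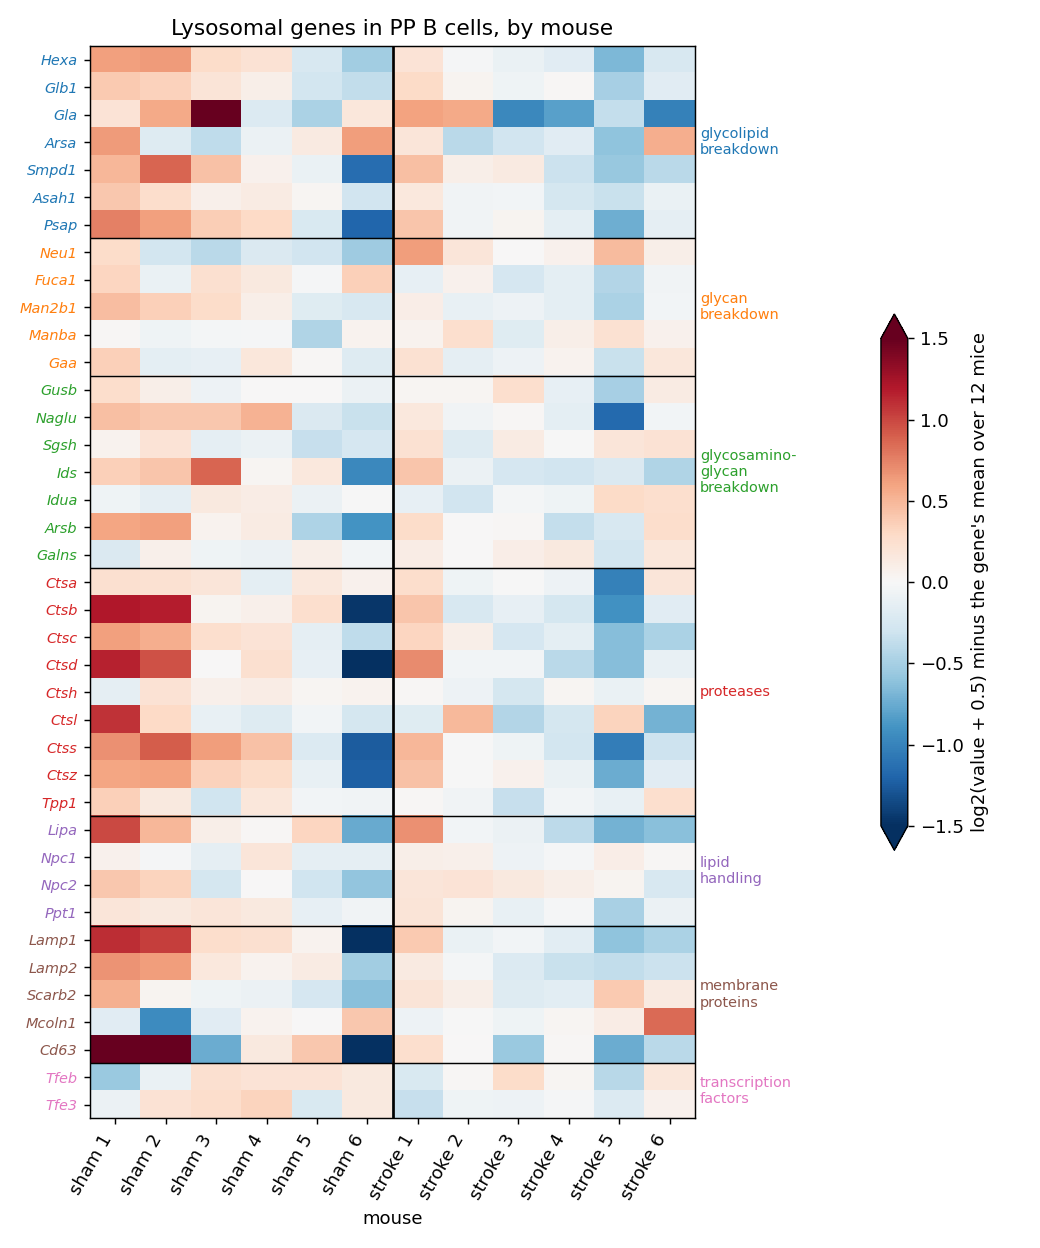
Each member (y axis, coloured by role) in each mouse (x axis), as log2(value + 0.5) minus its mean over the 12 mice, on a colour scale in log2 units. At least 30 of the 39 members are above their mean in sham controls 1, 2 and 4 and stroke mouse 1, and at most 11 in sham control 6 and stroke mice 3, 4 and 5. Of all genes tested, 50.5% to 59.1% are above their mean in the former mice and 38.6% to 54.5% in the latter.

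Marker genes of several other cell types varied between the same mice, while those of T cells and endothelium had other extremes. The summed level of the 9 proteases was 505 in sham control 6 and 1122 in sham control 2, and 480 in stroke mouse 5 to 924 in stroke mouse 1. The 10 markers of intestinal epithelium were also at their lowest in sham control 6 (sum 21) and high in sham controls 1 and 2 and stroke mouse 1. None of the 10 was at 0 in all mice, and the sums spanned 21 to 2252 (median 593) in sham controls and 41 to 1203 (median 197) in stroke mice. The log2 differences of the 6 epithelial markers tested were all negative, with a median of -1.65 and a smallest adjusted p of 0.791 (limma). Sham control 5 had an epithelial sum of 778 but a protease sum of 704, below those of sham controls 3 and 4. The 10 markers of macrophages and monocytes, cells rich in lysosomes, summed to 367 and 245 in sham controls 1 and 2, 38 in sham control 6 and 53 in stroke mouse 5, and to 53 to 203 in stroke mice. The highest of the stroke mice was stroke mouse 3, whose protease sum was 678, and stroke mouse 1 had 142 and 924. Differences were negative for 5 of the 6 tested, with a median of -0.18, but for 1 of 6 without sham control 1 (median 0.11) and for 3 of 6 without sham control 2 (median 0.011). Of these, Lyz2 carried most of the sum (109 ± 81.9 in sham controls and 78.8 ± 37.7 in stroke mice, SD, n = 6 each), while Cd14 was at no more than 0.340 and Fcgr1 at no more than 0.617 in any mouse. The 6 plasma cell markers spanned 212 to 1232 in sham controls and 278 to 887 in stroke mice, again lowest in sham control 6 and stroke mouse 5, and 4 of the 5 tested had a negative difference, with a median of -0.27. The 6 T cell markers summed to 34.8 to 99.7 in sham controls and 30.7 to 127 in stroke mice. They were lowest in stroke mouse 4 and highest in stroke mouse 1, with 61.3 in sham control 6. The 5 endothelial markers spanned 84.2 to 110 in sham controls and 91.9 to 114 in stroke mice, lowest in sham control 1. The part of any of these cells in the members' differences was not tested.

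**Figure D4:**
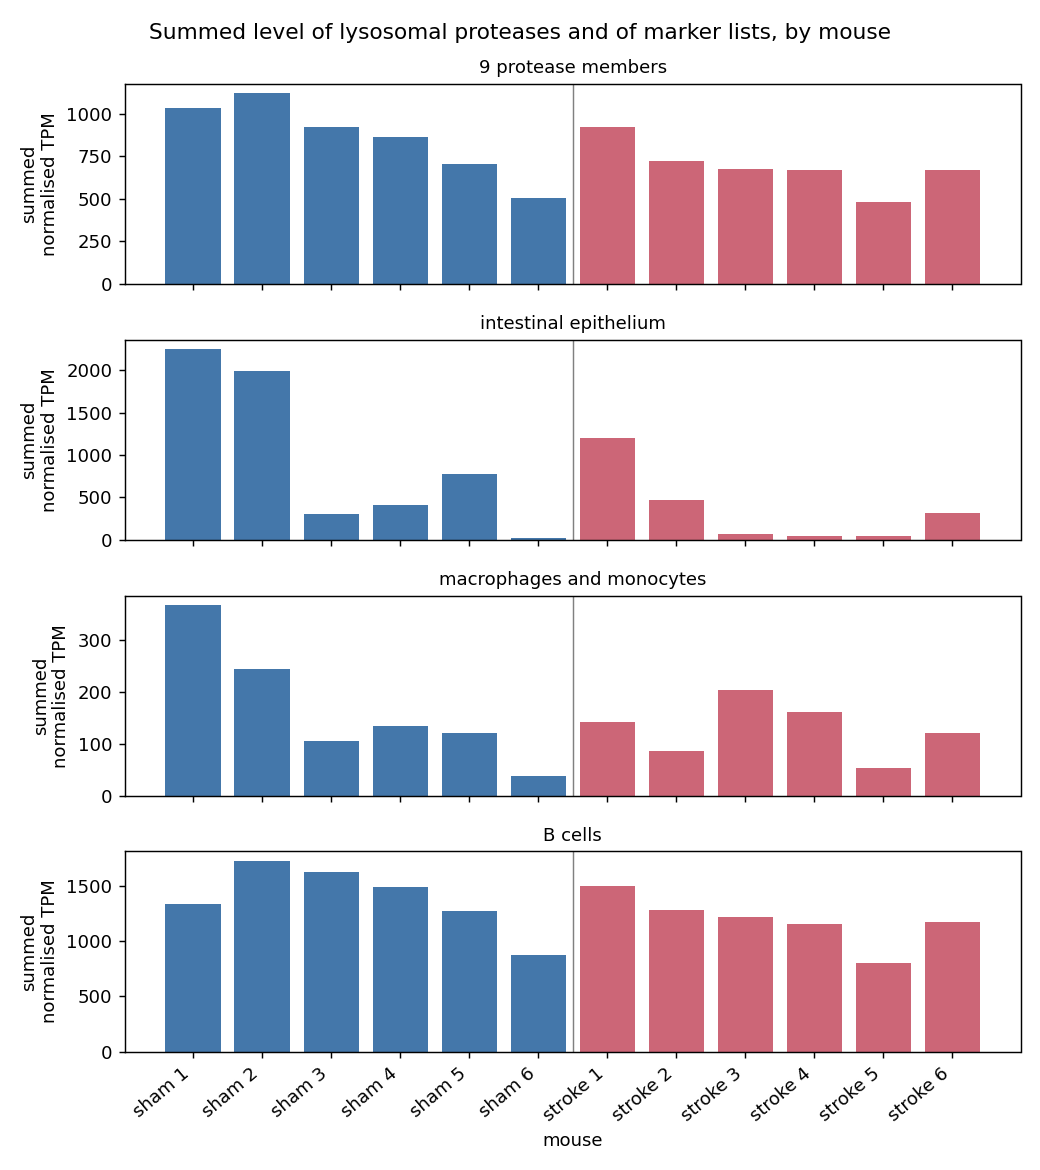
Summed normalised TPM (y axes, from 0) of the 9 proteases and of the markers of intestinal epithelium, of macrophages and monocytes and of B cells in each mouse (x axis). Sham control 6 (505) and stroke mouse 5 (480) have the lowest protease sums, and sham control 6 also has the lowest epithelial sum (21).

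The sum of the 7 dendritic cell markers was 28.3 to 47.7 in sham controls and 23.7 to 54.5 in stroke mice. Of the 5 tested, Flt3 (9.63 ± 2.08 in sham controls, 13.7 ± 1.62 in stroke mice, SD, n = 6 each) and Siglech (2.24 ± 1.19 and 3.18 ± 0.573) were higher at an unadjusted p under 0.05 (4.42% of all genes were), with adjusted p values of 0.716 and 0.791 (limma). The differences of Itgax, Batf3 and Zbtb46 were -0.28, -0.082 and 0.062, and the last is the median of the 5.

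The count of lower members moved most with one sham control. Without sham control 6, which had the lowest column total, 14 of 39 members were lower in stroke mice at an unadjusted p under 0.05 (35.9%, compared with 9.18% of the 12661 genes then tested), and 1 was higher, Neu1 (2.56%, compared with 7.39%). The 14 were Asah1, Cd63, Ctsb, Ctsc, Ctss, Fuca1, Hexa, Ids, Lamp1, Lamp2, Lipa, Man2b1, Naglu and Psap. Among them Lamp1 then had a difference of -0.71, Ctss of -0.69 and Ctsb of -0.76, and the smallest adjusted p of a member was 0.240, that of Lamp2 (limma). When sham controls 1, 2 and 6, the mice with the highest and lowest totals, were left out together, 0 members were lower and 1 was higher at an unadjusted p under 0.05 (2.12% and 3.85% of the 12904 genes then tested), and the median difference of the members was -0.17. With the 3 sham controls left, 1 member lay wholly below and 1 wholly above them (1.59% and 2.46% of all genes). Other mice moved the median toward 0. Without stroke mouse 5 it was -0.081 (-0.098 relative to all genes, 27 members negative), and without sham control 2 it was -0.10 (-0.13 relative to all genes). Without sham control 1 it was -0.13.

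The sign of several members was also set by the scaling. With every mouse brought to the same total, the median difference of all genes was 0.12 and that of the members -0.079, so that 24 members were negative as such and 30 lay below the median of all genes. Relative to all genes, the median of the members was then -0.20, and -0.21 with the values as deposited.

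Other genes of the lysosome were examined through 6 lists with 95 genes that are no members, of which 85 were tested. Differences were negative for 51 and positive for 34 (48.6% of all genes were negative), with a median of -0.051. With each mouse scaled to the same total, 27 were negative and 59 positive, and 53 of these 86 lay below the median of all genes. At an unadjusted p under 0.05, 0 were lower and 1 was higher, while 1.69% of all genes tested were lower and 4.42% higher. The vacuolar ATPase, the pump that acidifies the lysosome, was the list most like the proteases, with negative differences for 15 of its 16 genes and a median of -0.19. With each mouse scaled to the same total, 9 of the 16 were negative and 15 lay below the median of all genes. Atp6ap1, an accessory subunit, averaged 58.8 ± 9.39 in sham controls and 47.5 ± 8.43 in stroke mice (SD, n = 6 each), a difference of -0.31 (SE 0.144, unadjusted p = 0.0523, limma). Atp6v1e1 was the exception, at 0.056. The summed level of the list was highest in sham control 2 and lowest in sham control 6, at 895 and 536.

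Other hydrolases and their activators had 8 negative and 9 positive differences of 17 tested, other membrane proteins 7 and 9 of 16, and the genes that sort enzymes to the lysosome, such as the mannose 6-phosphate receptors, 5 and 6 of 11. The genes that control TFEB and TFE3, most of them parts of the nutrient-sensing machinery on the lysosomal surface, had 9 negative and 2 positive of 11 tested, with a median of -0.072 and 9 below the median of all genes. With each mouse scaled to the same total, 2 of 12 were negative (median 0.072) and 10 lay below the median of all genes. Autophagy genes had 7 and 7 of 14. Nbr1, a receptor that brings cargo to autophagosomes, was the one gene of the lists with an unadjusted p under 0.05. It averaged 69.3 ± 9.22 in sham controls and 85.6 ± 15.9 in stroke mice (SD, n = 6 each), a difference of 0.29 (SE 0.135, unadjusted p = 0.0482, adjusted p = 0.791, limma).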

How the data were processed

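RNA-seq libraries of PP B cells from 12 mice were analysed. According to the methods, the authors used FastQC 0.11.9 for read quality, Trimmomatic 0.39 for trimming, kallisto 0.48.0 with the transcripts of Ensembl release 102 (GRCm38) for quantification and sleuth 0.30.0 in R 4.1.2 for testing. The authors deposited a normalised TPM for each gene. Plain TPM had been planned for, but the column totals differ, so the deposited numbers are taken as an expression signal and were analysed after a log2 transformation. No counts are given, so depth is unknown and counting error cannot be stated.

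The transformation was log2(value + 0.5). Genes under 1 in any mouse were left out, and limma 3.58.1 (R 4.3.3) was fitted to the remaining 12590, with Benjamini-Hochberg adjustment over all of them. Of the 36175 genes, 4285 were at 0 in all mice. A log2 difference on this scale understates changes of low genes. Single values were compared by exact two-sided permutation tests over 924 assignments, whose smallest possible p is 0.0022. One library per mouse was made, and n is the number of mice. The fit was run on simulated data in which genes varied independently and the changes were larger than that of any member. That run does not show whether differences of the members' size would be found.

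The members and the lists were chosen with earlier results of these data known. All members are named by role. Values by mouse are given for those with an unadjusted p under 0.05, the 5 with the highest mean, and Fuca1, Lamp1 and Ctsl, which the study names. The study names Fuca1 as a reduced transcript in these data. It names Lamp1 and Catsl, taken here as cathepsin L, as proteins that were higher after stroke. Those were measured by mass spectrometry in PP B cells at an earlier time, so the RNA values here are another measure. Further members are described for their place in the range, chosen after their values were seen, as were Atp6ap1, Atp6v1e1 and the dendritic cell genes. Coordinates come from GENCODE M21 on GRCm38, and promoters from RefSeq on GRCm38.p6. Alternatives were other pseudocounts (0.1 and 1), filters, scalings, a replicate block, sample weights and leaving out mice. Leaving out sham controls 1, 2 and 6 together was chosen after seeing the data. One gene of the B cell list is not reported here.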

Additional observations from a re-analysis of the deposited data

Results flagged for a closer look

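In 10 of the groups of 6 values, a single mouse lay far from the other 5 of its group (its gap to the nearest was above Dixon's limit as a share of the group's range). For independent, normally distributed values such a gap arises in about 1 in 20 groups, and 78 groups were looked at. The values were not log-transformed here, the same mice recur between genes, and the share over all genes was not computed. The count is therefore no sign that the members are unusual. Sham control 1 was apart for Neu1 (22.4, the next sham control at 15.8) and Ctsl (17.6), sham control 3 for Gla (13.7) and sham control 5 for Manba (22.8, the lowest). Stroke mouse 1 was highest for Ids (7.61), Ctsd (32.3) and Lipa (12.8). Stroke mouse 5 was lowest for Naglu (3.60) and Ctsa (37.9), and stroke mouse 6 was highest for Mcoln1 (127, the next at 75.9). Each value was kept.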

How the results depend on the processing

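The median difference of the members was negative in all alternatives tried, from -0.26 without stroke mouse 1 to -0.079 with the same total in each mouse. The count of members lower at an unadjusted p under 0.05 (1 with the values as deposited) was 0 with the same total (0.584% of all genes), 2 with median-of-ratios factors (5.13%, all genes 2.52%), 9 with sample weights (23.1%, all genes 5.58%) and 0 without sham controls 1, 2 and 6, and leaving out 1 mouse at a time gave 1 to 14. Members wholly below or above the sham range numbered 1 and 1 without sham controls 1, 2 and 6 (1.59% of all genes lay below and 2.46% above), and 0 to 1 each when 1 mouse was left out, with 1 and 1 without sham control 1 (0.165% and 0.646% of all genes). Over all genes, the count lower (213) was 350 with no filter, 72 with the same total, 327 with quantile normalization and 703 with sample weights, and 146 to 1162 without 1 mouse. The count higher (557) was 1418, 341 and 866 with no filter, the same total and sample weights, and 395 to 936 without 1 mouse. One gene had an adjusted p under 0.05 when the filter was set on the mean over all mice, and 0 to 1 when 1 mouse was left out (1 without sham control 1).

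Mice of equal number in the 2 groups had correlations of 0.0134 to 0.494 in their deviations, above 0.1 in 4 of 6 pairs. The mean was 0.218, compared with -0.0414 for other pairs. Only 2 of 6 sham controls and 2 of 6 stroke mice correlated best with their own number, so the numbers were not taken as pairs. According to the paper, the data were combined from several independent experiments. The labels do not say which mice shared one, and such a batch was not tested. With the replicate block, 6 members were lower at an unadjusted p under 0.05, namely Ctsc, Fuca1, Hexa, Lamp2, Lipa and Naglu (15.4%, compared with 404 or 3.21% of all genes), and the smallest adjusted p of a member was 0.357 (limma). Fuca1 no longer had an unadjusted p under 0.05 with the same total (difference -0.19), with quantile normalization (-0.31) and without sham controls 1, 2 and 6 (-0.28).

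The sign of some members changed. With the same total, the difference was 0.074 for Tfeb, 0.060 for Gusb, 0.094 for Gaa, 0.031 for Tpp1, 0.0088 for Ctsh and 0.11 for Arsb. Idua was at -0.012 with median-of-ratios factors and -0.10 with sample weights. Without sham controls 1, 2 and 6, Tpp1 was at 0.012, Idua at -0.051 and Arsb at 0.090. Leaving out 1 mouse gave -0.53 to 0.041 for Ctsd, -0.078 to 0.041 for Gaa, -0.046 to 0.068 for Idua, -0.19 to 0.11 for Arsb, -0.17 to 0.025 for Tfeb and -0.12 to 0.029 for Gusb. The cause was not tested. Depth is unknown, so counting error could not be set apart from the spread between mice.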
